A study of Homo sapiens with 18 samples.

Results

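Pericentromeric flanks are described here as 9 bins of 1 Mb in the human build hg19 that lie near centromeres or their gaps. They are chr1:121000001-122000000 (chr1p), chr2:92000001-93000000 (chr2p), chr4:49000001-50000000 (chr4p), chr7:61000001-62000000 (chr7q), chr10:42000001-43000000 (chr10q), chr16:33000001-34000000 (chr16p), chr16:46000001-47000000 (chr16q), chr21:10000001-11000000 (chr21p) and chrX:61000001-62000000 (chrXq). These were 9 of the 2888 bins with at least 1 call. A member is any peak or binding site whose midpoint falls in one of them: 5288 of 1413022 MACS peaks and 9332 of 1483019 SISSRs sites over 12 libraries. The bins were chosen by the number of called regions that earlier results of these data showed in them. Their density, and every other value set against bins further out, is therefore a description and carries no test.

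DNA topoisomerase II passes one DNA duplex through a transient break in another, and human cells have a TOP2A form, which is tied to proliferation and works at centromeres in mitosis, and a TOP2B form, present in dividing and resting cells. Centromeres and their flanks are built of satellite DNA, short units such as alpha satellite repeated in tandem, together with segmental duplications. In hg19 such arrays are mostly replaced by gaps, and the copies at the gap edges stand in for many more in a genome, so reads from many copies can align to few positions. Etoposide and mitoxantrone are leukaemia drugs that trap topoisomerase II on broken DNA.

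Chromatin came from KG-1, an established human myeloid leukaemia cell line, crosslinked with 1% formaldehyde for 10 min. In the etoposide experiment, TOP2A (5 µg of antibody) and TOP2B (4 µg of antibody) were each precipitated from 2 samples given the vehicle methanol and 2 given 100 µM etoposide for 1 h. In the mitoxantrone experiment each antibody had 1 untreated sample and 1 given 0.5 µM mitoxantrone for 1 h, so that experiment has no replicates. For each library, immunoprecipitates made with the same antibody were pooled. The labels do not say whether replicates were separate cultures. A p-value here therefore covers only how far these samples vary, and that variation may be technical. The 6 input samples were not analysed here.

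Lists in the etoposide experiment held 36528 to 297394 MACS peaks and 65728 to 293514 SISSRs sites. Those of the mitoxantrone experiment held 702 to 109739 and 1397 to 107945. The lists carry no read totals, so depth is unknown. The TOP2A and TOP2B libraries of etoposide replicate 1 stood apart by their MACS peaks in the flanks. There, 20.9% and 31.7% of flank peaks were at least 500 bp wide, against 1.33 to 4.44% in the other 6 libraries of that experiment. These were also the shortest MACS lists of the experiment, so the main ranges are also given without these libraries, called the 6-library ranges below.

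Called regions lay more densely in the flanks than 5 Mb further out on the same arm in all 8 libraries of the etoposide experiment, by both callers. Densities are per covered kb, where a 10 kb window counts as covered if any of the 12 libraries has a call in it. Covered length came to 4580 kb in the 8 flanks that have a comparison bin and 7590 kb in those comparison bins. The chr21p flank (780 kb) has no comparison bin, because no list had a call 5 Mb further out. MACS peaks numbered 0.156 and 0.126 per kb in the TOP2A vehicle libraries, 0.0751 and 0.132 with etoposide, 0.0880 and 0.168 in the TOP2B vehicle libraries, and 0.0642 and 0.0838 with etoposide. In the comparison bins the same libraries had 0.0814, 0.0908, 0.0158, 0.0688, 0.0489, 0.108, 0.0213 and 0.0378 peaks per kb. Flank density was the higher one in each library.

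The ratio of MACS density, flank over comparison, had a geometric mean of 2.15 over the 8 libraries and ranged from 1.39 in TOP2A vehicle replicate 2 to 4.75 in TOP2A etoposide replicate 1. Without both etoposide replicate 1 libraries the mean was 1.78. For SISSRs sites the mean ratio was 3.52, from 2.28 in TOP2B vehicle replicate 2 to 7.32 in TOP2A etoposide replicate 1, and 3.12 without those libraries. Counted over the whole 1000 kb of each bin, gaps included, the mean ratios were 1.30 for MACS peaks and 2.12 for SISSRs sites. Covered length is itself set by the lists, so it is only an approximation of the assembled length.

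Site density in the flanks varied less between libraries than list length did. The longest SISSRs list of the experiment was 4.47 times the shortest, and density in the comparison bins spanned 4.93-fold. Flank density spanned 1.65-fold, from 0.147 sites per kb in TOP2B etoposide replicate 1 to 0.243 in TOP2B vehicle replicate 2. For MACS peaks the spans were 8.14-fold for list length, 6.81-fold for the comparison bins and 2.62-fold for the flanks. The shortest SISSRs list, TOP2A etoposide replicate 1, had the highest share of its sites in the flanks (1.30%), and the longest, TOP2B vehicle replicate 2, the lowest (0.474%).

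**Figure D1:**
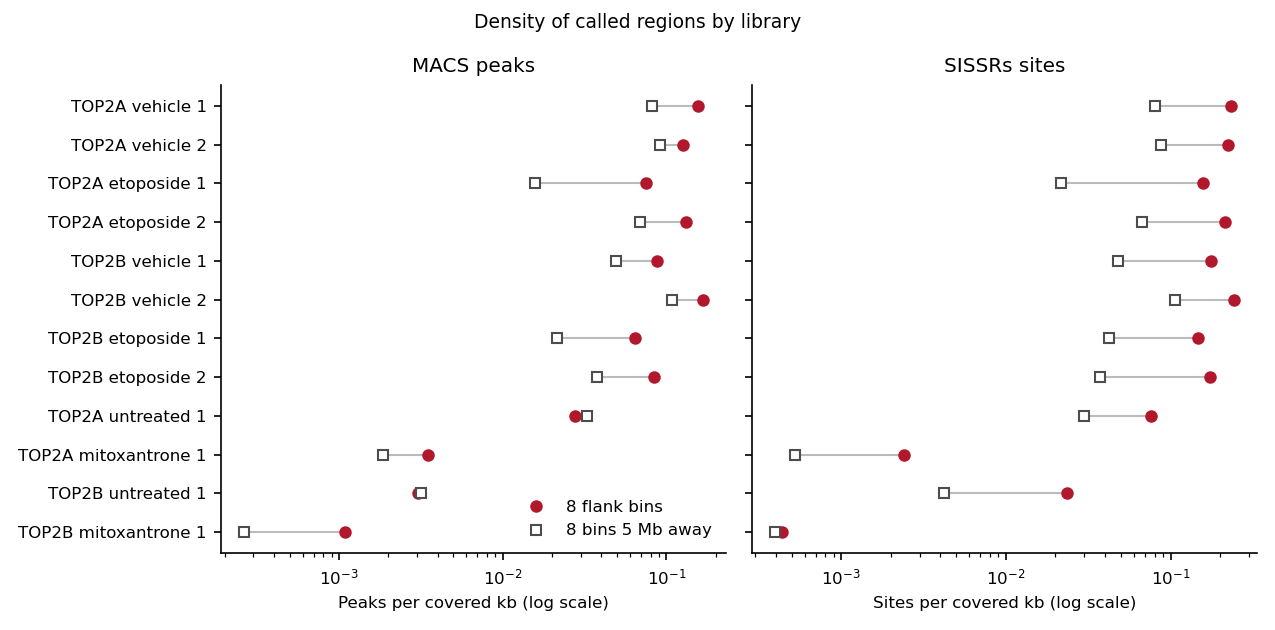
Density of MACS peaks (left) and SISSRs sites (right) per covered kb on a log axis, 1 row per library, for 8 flank bins (filled circles) and the 8 bins 5 Mb away (open squares). Circles lie to the right of squares in every library of the etoposide experiment. In the untreated libraries, 1 per antibody, the MACS order is the opposite by a small margin that was not tested (0.0275 against 0.0327 peaks per kb for TOP2A, 0.00306 against 0.00316 for TOP2B).

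Among 2864 bins with at least 300 covered kb, 6 of the flanks were in the top 10 by mean SISSRs density in the etoposide experiment. The bins were chosen by their number of calls, so these ranks partly repeat that choice. They also depend on covered length, which was 310 kb at chrXq and 1000 kb at chr16p. The chrXq flank ranked first with 0.302 ± 0.0351 sites per kb (SD, n = 8), followed by chr4p with 0.251 ± 0.0320 and chr21p with 0.251 ± 0.0728. Ranks 6, 8 and 9 were chr2p, chr10q and chr7q with 0.220, 0.209 and 0.188 sites per kb. The chr16p flank ranked 13, chr1p 31 and chr16q 93, the last with 0.137 ± 0.0291 sites per kb against a median of 0.0575 over all those bins. From chr4p down to chr7q, neighbours in this order differed by less than the larger of their SDs. By MACS density chr21p came highest, at rank 5 with 0.162 ± 0.0904 peaks per kb, and the others ranked from 35 (chr16p) to 154 (chr16q).

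Ratios to the comparison bin differed between flanks. At chrXq the SISSRs ratio had a geometric mean of 10.4 (5.21 to 25.0 over 8 libraries), with 0.0324 sites per kb in its comparison bin. The chr4p flank had 5.27 (2.69 to 11.3). The remaining 6 flanks had means of 2.46 to 3.32, and each flank exceeded its comparison bin in 8 of 8 libraries. For MACS peaks the means ran from 1.64 at chr2p to 3.72 at chrXq, and 7 of the 8 flanks were above their comparison bin in every library. The exception was chr10q, above in 6 of 8 libraries.

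The bins just outside the rule, 1 Mb further from the centromere, differed from the flanks to unequal degrees. Beside chr4p the neighbouring bin had 0.0623 sites per kb and beside chr10q 0.0640, close to the median of all bins, and beside chrXq it had 0.0330, below that median. Beside chr16p it had 0.135 sites per kb and beside chr21p 0.146, and beside chr2p its 0.232 exceeded the flank's 0.220. By MACS density the neighbour of chr2p (0.177 peaks per kb) was likewise above the flank (0.131). The bins beside chr7q, chr16q and chr1p had 0.0683, 0.0598 and 0.0881 sites per kb, each below its flank. Site density thus dropped at the outer limit of every flank but chr2p, and least at chr16p.

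Sites in the flanks differed from those elsewhere in fold over background more than in tags. The tags of a SISSRs site and its fold are the authors' own values and were used only within a list. Median fold of flank sites was 12.2 and 9.07 in the TOP2A vehicle libraries, 2.58 and 7.93 with etoposide, 3.91 and 12.5 in the TOP2B vehicle libraries, and 3.40 and 4.02 with etoposide. Comparison bins had medians of 69.7 to 132. The flank median was lower in 8 of 8 libraries, and over the 8 flanks with a comparison bin the geometric mean of the difference was 16.7-fold (14.0-fold in the 6 libraries). Sites with a fold under 2 made up 18.4 to 37.8% of flank sites and 0.356 to 2.22% of comparison sites. The 6-library range of the flank median was 3.91 to 12.5, and that of sites with a fold under 2 was 18.4 to 34.1%.

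The median flank site held 32 to 150 tags and the median comparison site 34 to 154, so the typical sites were alike in tags within a list. The upper end was not: 10.4 to 14.6% of flank sites belonged to the 1% of their list with the most tags, against 0 to 1.22% of comparison sites. Those strongest flank sites, 103 to 171 per library, had a median fold of only 1.49 to 2.00. The other sites in that top 1% had medians of 385 to 752, but the sets were not matched by tag rank. Among the 100 sites with the most tags in a list, the median fold was 1.51 to 1.88 in the flanks. It was 1.38 to 2.01 in other bins near a chromosome's longest stretch without calls, and 2.53 to 10.2 in the rest of the genome. Flank sites made up 0.474 to 1.30% of sites and 1.06 to 2.90% of tags. In the 6 libraries these shares were 0.474 to 0.888% and 1.06 to 1.87%. Per base of site, flank sites held 0.883 to 1.61 times the tags of comparison sites in the same library, and more in 4 of the 8. The widest gap was in TOP2A vehicle replicate 2, with 0.473 against 0.294 tags per base. Flank sites averaged 280 to 322 bp, and comparison sites 117 to 152 bp.

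Wide sites were concentrated in the flanks. Among flank sites, 11.6 to 15.4% were wider than 500 bp, against none in the comparison bins of these 8 libraries and 0.110 to 0.316% of all sites outside the flanks. The 9 flank bins held 29.7 to 37.0% of all such sites in a list. Both flank ranges were the same in the 6 libraries. The widest flank site per library measured 4200 to 10320 bp. Median width, by contrast, was 120 to 140 bp in the flanks and 100 to 140 bp in the comparison bins.

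The 2 callers agreed less often in the flanks. Of flank sites, 64.6 and 58.5% overlapped a MACS peak of the same library in TOP2A vehicle, 34.0 and 61.3% in TOP2A etoposide, 49.02 and 65.6% in TOP2B vehicle, and 38.0 and 45.4% in TOP2B etoposide. Comparison sites did so in 50.5 to 98.6% of cases, and the flank share was lower in 8 of 8 libraries. The 6-library ranges were 45.4 to 65.6% and 94.7 to 98.6%, so the low comparison values came from the etoposide replicate 1 libraries. Flank sites with a fold of at least 10 were 22.2 to 52.8% of the total, and 47.7 to 91.7% of them overlapped a MACS peak. Among flank sites with a lower fold it was 23.8 to 36.6%. In the 6 libraries the first range narrowed to 86.3 to 91.7%. Of the strongest flank sites by tags, only 9.94 to 19.8% lay in a MACS peak in 6 libraries, whereas 78.6% did in TOP2A etoposide replicate 1 and 93.0% in TOP2B etoposide replicate 1. These 2 libraries are those with the wide MACS peaks. Caller settings for single libraries are not known here.

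**Figure D2:**
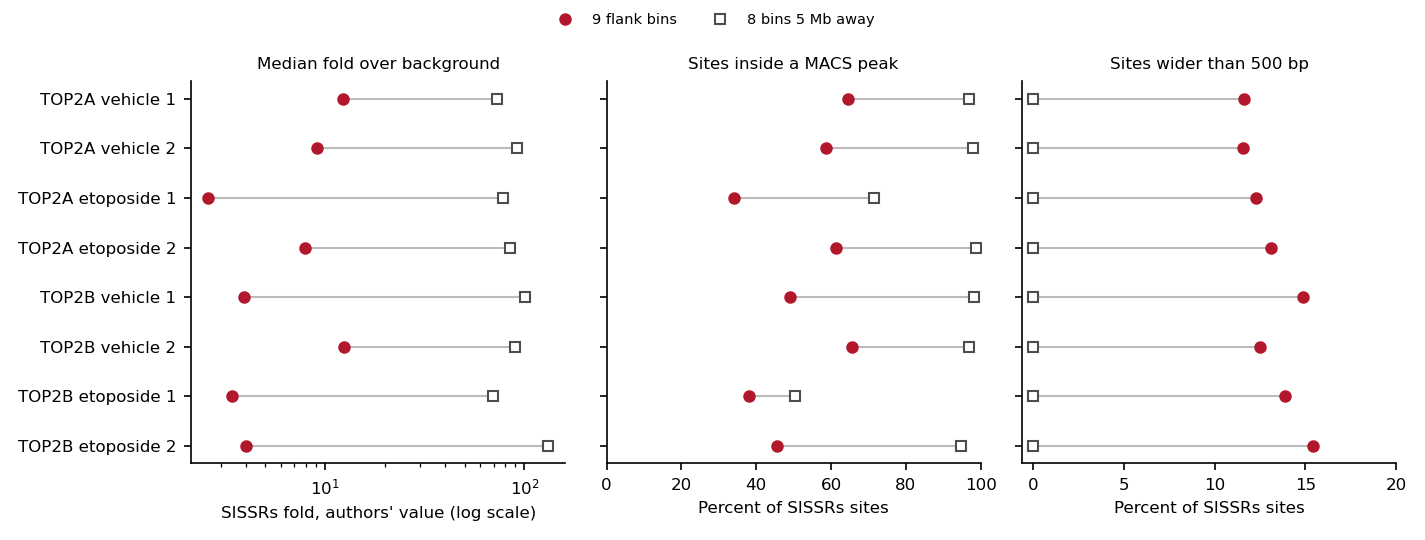
SISSRs sites of 8 libraries in the 9 flanks (filled circles) and the 8 bins 5 Mb away (open squares): median fold over background on a log axis (left), percent inside a MACS peak (middle) and percent wider than 500 bp (right). Flank medians of fold lie between 2.58 and 12.5, all below the comparison medians, and all comparison shares of wide sites are 0.

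The flank site with the most tags in 7 of the 8 lists was at chr1p. In TOP2A vehicle replicate 1 a chr10q site held more. The chr1p site covered chr1:121484111-121485311 with the same start and end in 4 libraries (20770 to 31278 tags, fold 1.00 to 1.43). The strongest chr1p site held 22988 tags in TOP2A vehicle replicate 1 and 25003 in replicate 2. With etoposide, TOP2A had 6974 and 31278 tags there. TOP2B had 20770 and 29075 tags with vehicle and 12626 and 8806 with etoposide. In these 8 lists the strongest chr1p site ranked between 1 and 4 by tags, out of 65728 to 293514 sites. Its fold lay between 1.00 and 1.43 in 7 libraries and was 4.22 in TOP2B etoposide replicate 1. A MACS peak overlapped it only in both etoposide replicate 1 libraries. The surrounding window chr1:121480001-121490000 held 83.0 ± 7.51% (SD, n = 8) of all tags in the chr1p flank, and 64.5% in the library with the least.

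Other flanks had recurrent strong sites of the same kind. At chr10q, the strongest site fell between 42596711 and 42600451 in 6 of the 8 libraries, with 2267 to 25038 tags and a rank of 3 to 6. In both etoposide replicate 2 libraries it started further in, at 42385451 for TOP2A (3893 tags) and at 42384991 for TOP2B (1511 tags). At chr7q the strongest site lay between 61967211 and 61970491 in 8 of 8 libraries (816 to 7335 tags, rank 9 to 37). At chr4p it lay between 49149371 and 49153471 in 8 of 8 (960 to 3874 tags, rank 15 to 42). All of these had a fold of at most 4.25. The strongest chr16p site ranked lower, between 287 and 1134, with 144 to 789 tags. In most libraries it lay either between 33873831 and 33874551 or between 33972831 and 33975671. It lay elsewhere in TOP2A vehicle replicate 1 and in TOP2B vehicle replicate 1, with a fold of 557.54 in the latter. At chrXq, first by density, the strongest site held 129 to 1049 tags and ranked between 120 and 1217.

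Tags gathered at the inner edge of most flanks. The chr16p and chr21p bins end 1285 and 188 kb short of the chromosome's longest stretch without any call. In the other 7 bins the edge of that stretch lies inside the bin. Within 50 kb of that edge lay 69.1 to 87.6% of the tags at chr1p, 79.3 to 88.8% at chr16q, 68.4 to 82.5% at chr2p, 53.6 to 70.9% at chrXq and 51.7 to 68.6% at chr10q over the 8 libraries. That stretch is 8.06 to 16.1% of the covered length of these bins. At chr4p the share was 28.0 to 38.0% and at chr7q 3.35 to 12.3%, where 50 kb is 9.62% and 6.41% of the covered length. MACS peaks did not show this in most libraries. The median share of peaks within 50 kb was 3.30 to 10.7% in 6 of the 7 flanks and 28.6% at chrXq, with single libraries far above these medians. TOP2A etoposide replicate 1 had 80.0% of its chr2p peaks and 78.9% of its chr16q peaks there, and TOP2B etoposide replicate 1 had 72.7% and 59.0%. TOP2B etoposide replicate 2 had 38.6% of its chr16q peaks and 50% of its chrXq peaks there. In the 6 libraries the tag ranges changed at chrXq only, to 53.6 to 66.5%.

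**Figure D3:**
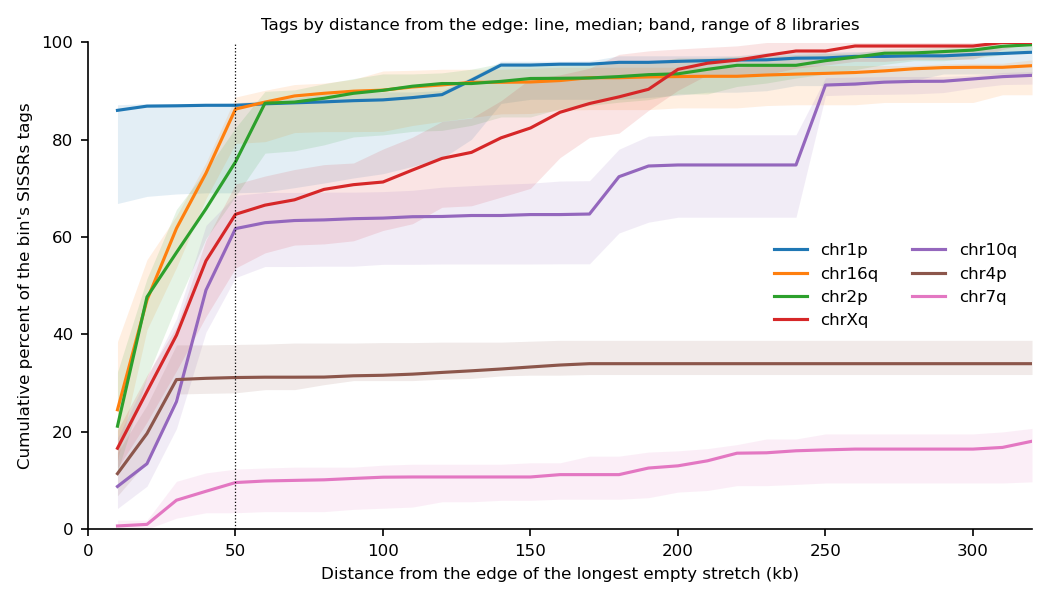
Cumulative percent of a flank's SISSRs tags against distance in kb from the edge of the longest stretch without calls, for the 7 flanks that contain that edge. Lines are medians and bands the range over 8 libraries, and the dotted line marks 50 kb: chr1p, chr16q and chr2p are above 68% there, and chr7q is at most 12.3%.

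Windows called in several libraries were more frequent in the flanks than in the comparison bins. The flanks were chosen for their number of calls, and recurrence rises with the density of calls. The part of density in it was not tested. A covered 1 kb window held a SISSRs midpoint in a mean of 1.51 of the 12 libraries in the 8 flanks, against 0.511 in the comparison bins. In the flanks, 594 of 4580 windows (12.97%) were called in at least 4 libraries, against 29 of 7590 (0.382%) in the comparison bins. At 8 or more libraries there were 31 windows against 0. For MACS peaks the shares at 4 or more were 1.55% and 0.211%. Over the 10 libraries left without both etoposide replicate 1 libraries, the shares at 4 or more were 9.26% and 0.264% by SISSRs and 0.808% and 0.132% by MACS, and no window reached 8. The chr21p flank had 16.4% of windows by SISSRs and 4.49% by MACS. Per flank, the SISSRs share ran from 8.23% at chr16q to 24.5% at chrXq, and every comparison bin was at or below 1.67%.

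**Figure D4:**
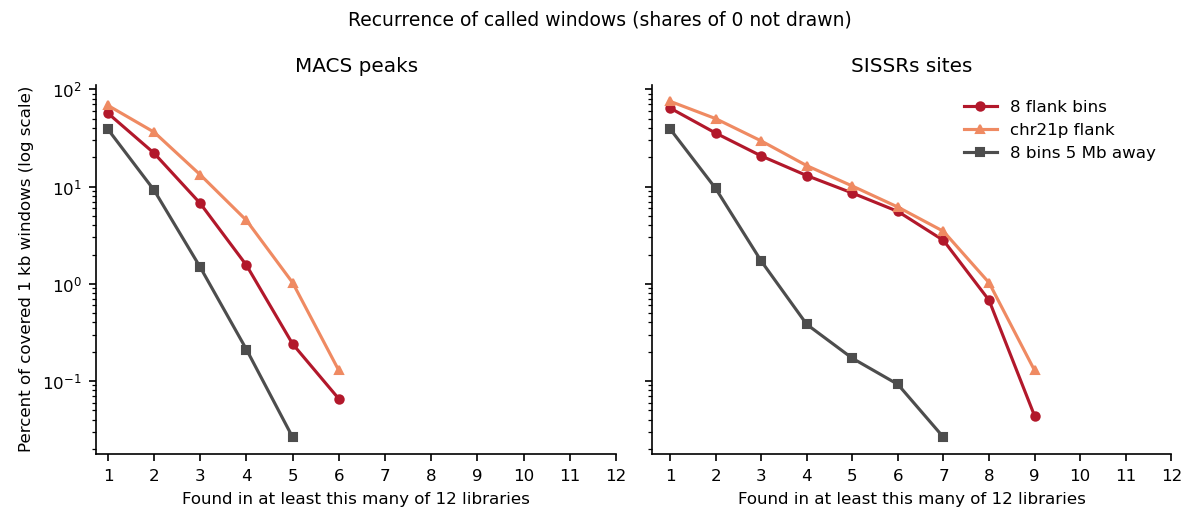
Percent of covered 1 kb windows (log axis) with a MACS peak (left) or SISSRs site (right) midpoint in at least the number of libraries on the x axis, for 8 flanks, the chr21p flank and the 8 bins 5 Mb away. At 4 libraries the SISSRs curves are at 12.97%, 16.4% and 0.382%.

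Most merged MACS regions still belonged to a single library. Merging peaks of all 12 libraries gave 4006 regions in the 9 flanks, of which 80.0% came from 1 library and 64 from at least 4. A merged region counts libraries over its whole length, so short peaks at different positions under 1 wide peak count together. No 1 kb window of the flanks held MACS midpoints of more than 6 libraries. The most shared region was chr16:33236842-33241613 (4772 bp) at chr16p, with a peak in 10 libraries: all 8 of the etoposide experiment, TOP2A untreated and TOP2B mitoxantrone. The widest chr16p peak of TOP2B mitoxantrone was also 4772 bp. A second chr16p region, chr16:33521689-33525324, had peaks in 7 libraries, and these included both mitoxantrone libraries. At chr21p, chr21:10619923-10624394 was found in 7. At chr1p, chr1:121354754-121357046 was found in 7 libraries of the etoposide experiment, and at chr7q so was chr7:61975997-61977137. Their median score percentile within a list was 9.13 to 50.6, so the most shared peaks were not those with the highest scores. In chr4p the most shared region was chr4:49286561-49287832 with 6 libraries, while in chr16q chr16:46453752-46454222 and chr16:46432021-46435931 tied with 6 and in chr10q chr10:42658018-42658330 and chr10:42542556-42545492 tied with 5. No region at chr2p or chrXq exceeded 4 libraries.

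The 1 kb window with the highest mean tag percentile of each flank held a site in 7 to 9 of the 12 libraries. The chr1p window chr1:121484001-121485000 held one in all 8 libraries of the etoposide experiment, at percentile 99.986 of the list or above. In the same 8 libraries the chr4p window chr4:49636001-49637000 had a lowest percentile of 99.8 and the chr16q window chr16:46413001-46414000 one of 96.7. The chr2p window chr2:92269001-92270000 held a site in 7, with a lowest percentile of 99.9. These 4 flanks thus had a window near the top of every list that called it. In the other flanks the level varied more. The windows of chr7q (chr7:61976001-61977000, 8 libraries), chr16p (chr16:33874001-33875000, 7) and chrXq (chrX:61691001-61692000, 7) had lowest percentiles of 80.2, 71.4 and 74.4. Those of chr10q (chr10:42402001-42403000) and chr21p (chr21:10702001-10703000) had a site in 9 libraries, with lowest percentiles of 54.7 and 47.7. The TOP2A untreated library was among these 9, with 1049 and 328 tags.

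Replicates of a group shared more of their calls in the flanks. Such overlap also rises with the density of calls, and that part was not tested. Of SISSRs sites, 27.6 to 45.99% overlapped a site of the other replicate in the flanks and 1.24 to 4.27% in the comparison bins, over 8 directed comparisons. For MACS peaks the ranges were 4.48 to 11.9% and 0.348 to 3.77%, with the flank share higher in 8 of 8. In the vehicle groups alone, flank shares were 28.5 to 45.4% by SISSRs and 6.23 to 11.9% by MACS. The SISSRs overlap in the flanks was much lower among short sites. With only sites of at most 200 bp kept in both replicates, the shares were 5.55 to 8.35% and 0.831 to 3.45%. Leaving out the wider sites also lowers the density of calls, so their own part in the overlap was not tested. Sites with the identical start and end in at least 2 libraries made up 225 of 9050 distinct flank sites (2.49%) and 19 of 3962 (0.480%) in the comparison bins.

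With etoposide, the geometric mean share of the TOP2A lists in the flanks was 1.78 times (MACS) and 1.62 times (SISSRs) that with vehicle, and replicate 1 had much the larger values. The 9 flanks held 0.414 and 0.307% of MACS peaks with vehicle and 1.02 and 0.393% with etoposide, so the groups overlapped (log2 difference 0.83, two-sided exact permutation p = 0.667). For SISSRs sites the shares were 0.596 and 0.513% with vehicle and 1.30 and 0.620% with etoposide, with no overlap (log2 difference 0.70, exact permutation p = 0.333). With 2 against 2 libraries 0.333 is the smallest p this test can give. Without TOP2A etoposide replicate 1 the differences were 0.14 by MACS and 0.17 by SISSRs. The TOP2A etoposide lists were also shorter than the vehicle lists, 65728 and 194577 sites against 217628 and 246619, and the part of list length in this difference was not tested.

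For TOP2B the direction of the difference depended on how it was computed. MACS peaks gave 0.426 and 0.332% with vehicle and 0.488 and 0.452% with etoposide (log2 difference 0.32, exact permutation p = 0.333). That difference was -0.022 without the 1% of 10 kb windows with the most peaks, 1.13 over bases covered and 0.14 without TOP2B vehicle replicate 2. SISSRs sites gave 0.808 and 0.474% against 0.709 and 0.888%, with overlap (log2 difference 0.36, exact permutation p = 0.667). Without TOP2B vehicle replicate 2 the SISSRs difference was -0.025. The TOP2B etoposide lists, too, were shorter than the vehicle lists, and the part of list length was not tested. They held 70459 and 103633 peaks against 116111 and 297394, and 114738 and 106101 sites against 119985 and 293514.

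By flank, limma called no bin changed at an adjusted p of 0.05 in either antibody or caller, 0 of 2885 to 2887 bins and 0 of the 9 flanks (0% in each comparison). At an unadjusted p under 0.05 there were 100 bins for TOP2A and 130 for TOP2B by MACS, and 153 and 134 by SISSRs. Values are peaks or sites per 10000 of the list. The TOP2A SISSRs comparison had the most flanks on one side. All 9 had a log2 difference above 0 (0.33 to 1.08, median 0.72), against 47.9% of all bins (median -0.02), and 6 of 9 had both etoposide libraries above both vehicle libraries, against 16% of all bins. None had both below (17.8% of all bins). At an unadjusted p under 0.05, 7 of 9 were higher, against 2.01% of all bins. Such counts of flanks, here and below, are descriptions and not a test of the 9 as a set. The bins were chosen by their calls in these same data, and all 9 are measured in the same libraries. Without etoposide replicate 1 the median of the 9 fell to 0.16 (0.00 to 0.46).

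At chrXq the TOP2A SISSRs values were 4.14 and 4.05 with vehicle and 13.2 and 5.65 with etoposide. This was the smallest p among the flanks (log2 difference 1.08, SE 0.28, limma adjusted p = 0.605). At chr4p they were 6.30 and 5.47 against 21.0 and 6.58 (1.01, SE 0.41, limma adjusted p = 0.908). The groups also did not overlap at chr1p, chr10q, chr16q and chr21p. In each of these 6 flanks replicate 1 was the higher etoposide library. At chr1p, for example, the values were 3.58 and 2.96 with vehicle and 6.24 and 3.96 with etoposide. No difference passed the threshold.

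By MACS, TOP2A log2 differences reached 1.61 with a median of 1.24, and 8 of 9 were above 0 against 50.7% of all bins. The groups did not overlap in 3 of 9 flanks, chr1p, chr10q and chrXq, all higher, against 17.7% of all bins. At an unadjusted p under 0.05, 2 of 9 were higher (1.77% of all bins). Without etoposide replicate 1 the median was 0.07. Values at chrXq were 1.43 and 1.28 with vehicle and 7.39 and 2.31 with etoposide (1.61, SE 0.46, limma adjusted p = 0.939). With a pseudocount of 2 in place of 0.5, chrXq was the only bin called (1.61, limma adjusted p = 0.00116). Over the other settings that kept all 4 libraries, its adjusted p was 0.924 to 0.962. At chr10q they were 2.49 and 2.77 against 18.9 and 2.97. At chr16p, where the vehicle libraries had 11.2 and 6.90 and the etoposide libraries 8.21 and 9.23, the difference was within the spread (SE 0.19). For TOP2B, MACS differences ran from -0.39 at chr16p to 0.95 at chr10q. Of the 9, 7 were above 0 against 49.7% of all bins, and in 4 (chr2p, chr10q, chr16q and chrXq) the groups did not overlap, all higher, against 19.2%. At an unadjusted p under 0.05, 2 of 9 were higher (2.67% of all bins). The chr16q flank had 2.76 and 2.72 with vehicle and 5.54 and 4.25 with etoposide (0.82, SE 0.22, limma adjusted p = 0.939). TOP2B SISSRs differences were above 0 in 8 of 9 (48.9% of all bins), up to 0.62 at chr10q, and no flank was without overlap, higher (17.1% of all bins) or lower (18.1%). None was higher at an unadjusted p under 0.05 (2.49% of all bins).

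Single libraries decided what limma called. Without TOP2A etoposide replicate 2, so that the very short replicate 1 lists stood alone, 549 bins were called by MACS and 241 by SISSRs. Among these were 6 and 8 of the 9 flanks, all higher, against 8.42% and 3.67% of all bins called higher. Without TOP2B etoposide replicate 2, 124 bins were called by MACS, among them 5 flanks of which 4 were higher (1.35% of all bins called higher). Without TOP2B vehicle replicate 1, 7 bins were called by SISSRs, all higher (0.243% of bins), and 5 of them were flanks. Each such fit takes the single library left in a group to have the spread of the other group.

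**Figure D5:**
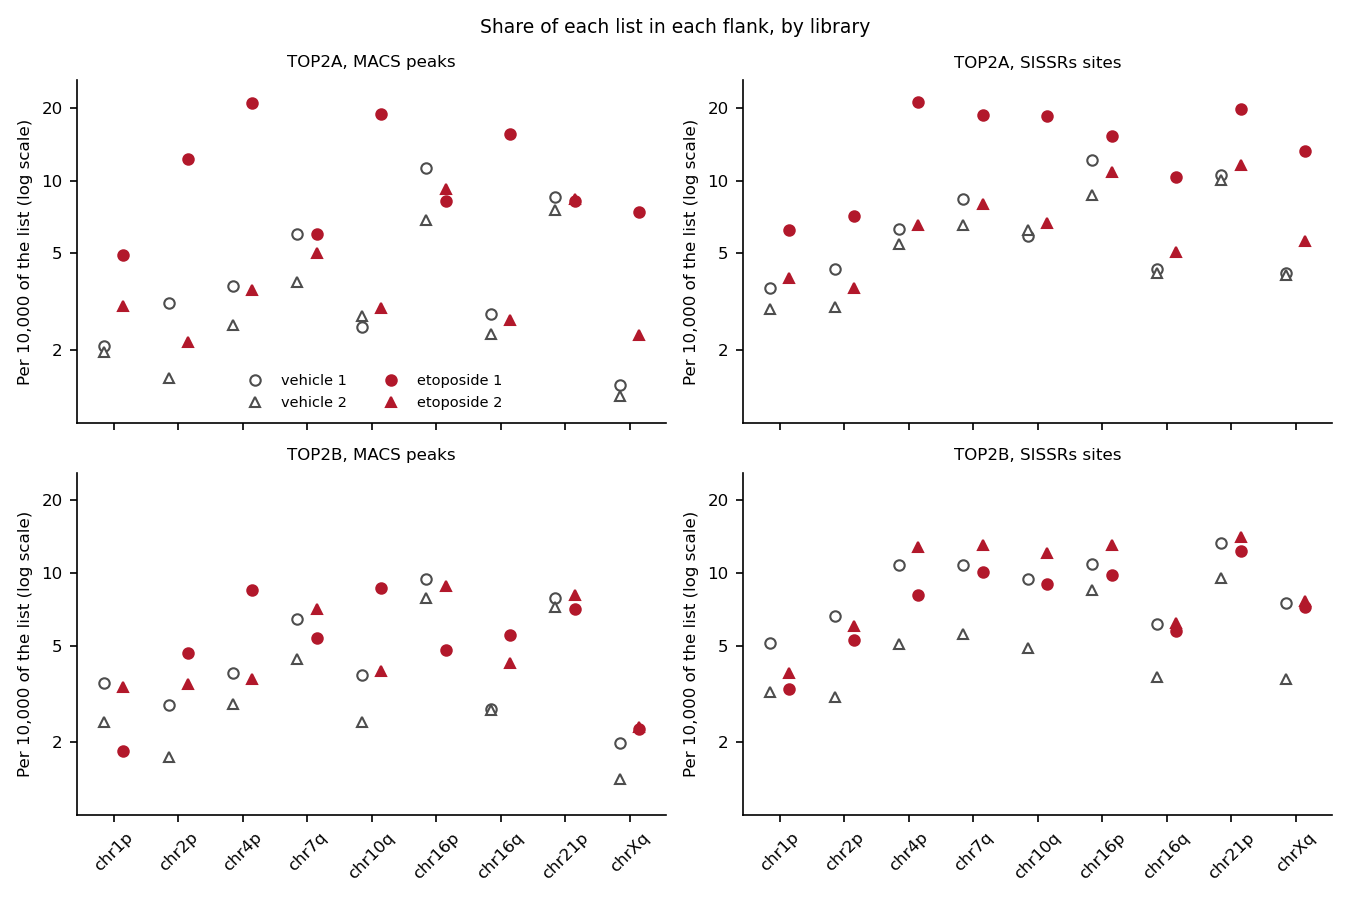
Peaks or sites per 10000 of the list (log axis) in each of the 9 flanks for TOP2A (top) and TOP2B (bottom), by MACS (left) and SISSRs (right). Open symbols are vehicle and filled ones etoposide libraries, circles replicate 1 and triangles replicate 2: TOP2A etoposide replicate 1 is the highest library in all 9 flanks by SISSRs, up to 21.0 at chr4p.

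No flank was called different between TOP2A and TOP2B. Over the 8 libraries, with treatment as a term, limma called 0 of 2887 bins by MACS and 0 of 2886 by SISSRs (0% in each), with 99 and 111 bins at an unadjusted p under 0.05. Higher for TOP2B at that unadjusted level were none of the flanks, against 1.77% and 1.91% of all bins. For the flanks, the log2 difference of TOP2B over TOP2A ran from -0.27 to 0.16 by MACS (SE 0.10 to 0.64) and from -0.14 to 0.24 by SISSRs (SE 0.14 to 0.46). It was above 0 in 1 of 9 by MACS (49.7% of all bins) and in 4 of 9 by SISSRs (51.4%). No flank separated the antibodies without overlap. Of all bins, 1.21% did so with TOP2B higher and 1.25% with TOP2B lower by MACS, and 1.59% and 1.18% by SISSRs. The direction rested on single libraries: without TOP2A etoposide replicate 1, 7 of 9 flanks were above 0 by MACS (median 0.22 in place of -0.15) and 8 of 9 by SISSRs (0.25 in place of -0.01). By SISSRs, 7 of 9 were above 0 without TOP2B vehicle replicate 2, 8 of 9 without TOP2B etoposide replicate 1 and 0 of 9 without TOP2B vehicle replicate 1.

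In the mitoxantrone experiment the flanks held few calls in number, though not a small share of every list. TOP2A untreated had 150 MACS peaks and 447 SISSRs sites there (0.137% and 0.414% of the list). TOP2A mitoxantrone had 17 and 12 (0.223% and 0.321%). TOP2B untreated had 16 and 131 (0.172% and 1.19%), and TOP2B mitoxantrone 7 and 3 (0.997% and 0.215%). The TOP2A untreated library had 0.0275 MACS peaks per kb in the flanks and 0.0327 in the comparison bins, a ratio of 0.842. By SISSRs its ratio was 2.53. In TOP2B untreated the ratio was 0.967 by MACS, from only 14 and 24 peaks, and 5.54 by SISSRs. MACS peaks in this experiment were also wider throughout, with a list median of 492 bp in TOP2A untreated against 98 to 128 bp in the etoposide experiment. The MACS ratio was thus below 1 and the SISSRs ratio above 1 in both untreated libraries. Each is a single library, and the MACS ratio of TOP2B untreated was close to even. The direction of neither MACS ratio was tested. Lists of the 2 experiments are not set against each other.

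The flank sites of TOP2B untreated took 11.1% of the list's tags with 1.19% of its sites. A single site, chr10:42599671-42601051 at chr10q, held 26047 tags, the most of the list, at a fold of 2.37 and outside any MACS peak. It lies in the stretch that held the strongest chr10q site in 6 libraries of the etoposide experiment. In TOP2A untreated the strongest site of the list was also at chr10q, chr10:42401731-42403411 with 1049 tags and a fold of 6.19. The chr1p stretch that led the etoposide experiment held no site in the 4 libraries of the mitoxantrone experiment at chr1:121484001-121485000. In the flanks of the 2 mitoxantrone lists the strongest sites held 34 to 86 tags. With 1 sample a group and lists this short, no effect of mitoxantrone on the flanks was tested.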

How the data were processed

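The lists come from 12 TOP2A or TOP2B libraries. Per the submitters' processing notes, the build is hg19 and the tools are MACS 1.4, Bowtie2 2.2.5 and bedtools 2.26.0, with no role stated. Each library has a deposited MACS list, whose peaks carry the authors' score, and a deposited SISSRs list, whose sites carry the authors' count of tags, fold ratio and p-value. The SISSRs columns have no header and were identified from their values. No source used here gives the caller settings or says how input was used. There is 1 list per library and caller.

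Calls were assigned by midpoint. A genome of the build was not used here, so covered length stands in for assembled length, and no genes or sequences are given. Shares of a list per 1 Mb bin were compared as log2 of calls per 10000 with a pseudocount of 0.5, for bins with a mean of at least 5, by limma 3.58.1 (trend and robust, R 4.3.3) over all bins of chromosomes 1 to 22 and X with Benjamini-Hochberg adjustment. This step was also run on simulated counts in which, unlike in these lists, no library stood apart. How often it would miss a change in these lists is therefore not known. Shares over all flanks were compared with exact permutation tests. Counting and permutation tests ran in scipy 1.17.1 and pandas 2.3.3 (numpy 2.4.6, Python 3.11.15), and plots in matplotlib 3.10.9. All 9 flanks are named, with the merged regions found in the most libraries (at least 4) and the 1 kb window with the highest mean tag percentile. The members and lists were chosen with earlier results of these data known. Fold, width, caller agreement, distance from the edge and replicate overlap, with their limits (fold 2 and 10, 500 bp, 50 kb, the top 1% by tags), were added after seeing the data.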

Additional observations from a re-analysis of the deposited data

How the results depend on the processing

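Of 237 alternative values for the comparisons, 220 were counted as unchanged, 15 moved and 2 reversed. Unchanged means an equal or similar count of called bins, or a value within a spread set for each comparison. For the TOP2A share by MACS that spread was 0.72 in log2. The fall from 0.83 to 0.14 without TOP2A etoposide replicate 1 therefore counts as unchanged. Counting the whole 1000 kb of a bin moved the mean log2 density ratio of the 8 libraries from 1.10 to 0.37 (MACS) and from 1.82 to 1.09 (SISSRs), and in TOP2A untreated from -0.25 to -0.98 and from 1.34 to 0.61. Bins 3 Mb away, all other bins of the chromosomes, a score of at least 100 and leaving out any 1 flank left these ratios within the spread between libraries. Replicates shared 32.7 percentage points more SISSRs sites in the flanks than in the comparison bins, 5.28 among sites of at most 200 bp and 9.98 for midpoints within 100 bp. For the share of TOP2B MACS peaks in the flanks, the log2 difference of 0.32 became -0.022 without the 1% of 10 kb windows with the most peaks and 1.13 over bases covered, and the cause was not tested.

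Leaving out 1 replicate gave 0 to 549 bins called for TOP2A by MACS and 0 to 241 by SISSRs, 0 to 124 and 0 to 7 for TOP2B, and 0 between antibodies. The 3 bins called by MACS without TOP2B etoposide replicate 1, and the 4 and 3 called by SISSRs without replicate 1 and 2, were all lower. A pseudocount of 2 called 1 bin for TOP2A by MACS, the chrXq flank. Leaving out 1 replicate, the log2 difference in share ranged from 0.14 to 1.52 and from 0.17 to 1.23 for TOP2A by MACS and SISSRs, and from 0.14 to 0.50 and from -0.025 (without TOP2B vehicle replicate 2) to 0.74 for TOP2B. Mean log2 density ratios ranged from 0.94 to 1.19 and from 1.67 to 1.91. The log2 ratio of median fold ranged from 3.91 to 4.26, and the difference in MACS agreement from 35.2 to 40.8 percentage points.

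Replicate numbers are shared between groups, with 2 pairs per antibody. Same-numbered libraries did not deviate together over the bins, with correlations of -0.14 to 0.01. With the replicate block limma called 0 bins in all 6 comparisons and the share differences stayed at 0.83, 0.70, 0.32 and 0.36. The crossed pairing for TOP2B by MACS called 0 bins.

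Depth is unknown, covered length depends on the lists, input was not analysed here, and repeats shared by many loci cannot be told apart in lists of called regions.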

Other observations

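SISSRs sites with many tags and a low fold were also found near the longest stretch without calls on other chromosomes or outside the chosen bins. Of the 100 sites with the most tags in a list, 49 to 66 lay in the 9 flanks in the 8 libraries of the etoposide experiment. Another 24 to 38 lay elsewhere within 2 Mb of the longest stretch without calls on their chromosome, and 9 to 18 in the rest of the genome. Their median fold was 1.51 to 1.88 in the flanks, 1.38 to 2.01 in the other bins near such a stretch and 2.53 to 10.2 elsewhere. In TOP2A and TOP2B untreated, 12 and 11 of the 100 were in the flanks, and in both mitoxantrone libraries 1.

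One such site, on chromosome 8, was chosen for mention after its values were seen. It started at 43092771 in all 8 libraries of the etoposide experiment, ended between 43093491 and 43097751, and ranked first or second by tags in each. Its tags were 9251 to 28474, and its fold was 1.08 to 1.70 in 7 libraries and 12.85 in TOP2B etoposide replicate 2. It overlapped a MACS peak in 3 of the 8. None of the 4 lists of the mitoxantrone experiment had a site with that start.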
